A study of Homo sapiens with 8 samples.

Results

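The genes described here encode 9 proteins of the chaperone machinery that holds the androgen receptor and other steroid receptors in a hormone-binding state: FKBP4, FKBP5, HSP90AA1, HSP90AB1, PTGES3, STIP1, DNAJA1, BAG1 and PPID. They were taken from an array table as the probe sets annotated to exactly 1 of these symbols, which gave 25 probe sets for all 9 genes, out of 41091 probe sets with 1 symbol for 19775 genes. Each gene was read by its brightest probe set over the 8 arrays, and the other 16 probe sets were tested in a separate fit over all probe sets. The receptor gene itself is not analysed here.

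The cells were MDA-MB-453, an established human breast cancer line that responds to androgen. They were kept for 3 days in medium without phenol red and with 5% serum treated with charcoal and dextran, which lowers its steroid content, and then received vehicle or 10 nM dihydrotestosterone (DHT, the potent natural androgen). The 4 groups were vehicle and DHT for 4 h, 16 h and 48 h, each with 2 biological replicates and 1 array per replicate. The labels give all groups the same 3 days in stripped serum before treatment, and all come from 1 cell line. No label says whether the total time in culture was equal between groups. No harvest time is labelled for the vehicle cultures, so an effect of DHT and one of time in culture cannot be told apart. Between the DHT times, longer exposure and longer culture cannot be told apart either. The 3 comparisons with vehicle share the same vehicle arrays.

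A steroid receptor without its ligand is folded by HSP70 with its J-domain partner and passed to HSP90 by an adaptor that binds both chaperones. The mature complex holds an HSP90 dimer, the small acidic protein p23 and 1 immunophilin with tetratricopeptide repeats. FKBP4 in that place favours hormone binding and transport to the nucleus, whereas FKBP5 in the same place lowers the hormone affinity of the glucocorticoid receptor and is reported to support androgen receptor activity in prostate cells. FKBP5 is a classical target gene of androgen, glucocorticoid and progesterone receptors, with binding sites of these receptors in its introns.

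The arrays were close in overall signal. The median log2 signal lay between 7.59 and 7.63, and the median log2 change of all genes from vehicle was 0.0027 at 4 h, 0.024 at 16 h and 0.012 at 48 h. One array was unlike the rest, replicate 2 of DHT 16 h. Its 3′ control probe set for ACTB exceeded the 5′ one by 1.52 log2 units, where the other 7 arrays had 0.203 to 0.945. The 0.945 was on DHT 48 h replicate 2, and the next value was 0.535, on DHT 16 h replicate 1. The GAPDH controls differed by 0.817 on DHT 16 h replicate 2 and by 0.185 to 0.349 elsewhere. Markers of luminal epithelium, the labelled cell type's lineage, shifted with DHT. The 8 luminal markers averaged a log2 signal of 13.07 and 13.09 on the vehicle arrays, 12.80 and 12.88 at 4 h, 12.90 and 13.00 at 16 h, and 12.83 and 12.89 at 48 h. Against vehicle 0 of the 8 were called at 4 h (limma, 4 at an unadjusted p under 0.05, median -0.24), 1 was higher and 1 lower at 16 h, and 1 was higher and 3 lower at 48 h. The 3 basal markers measured of 5 averaged between 8.48 and 8.50 at 48 h and between 7.85 and 8.26 in the other groups, and 1 of the 3 was called higher at 48 h. The 6 mesenchymal markers averaged between 8.24 and 8.37, and the 4 immune and endothelial markers measured of 6 between 8.27 and 8.38, and limma called 0 of either list at any time, 0 of them passing 0.05 before adjustment. The part of these marker shifts in the changes below was not tested.

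Promoter windows show which of these genes carry the letters of known control elements close to their start. RefSeq windows on GRCh38.p14, running from 250 bases before to 50 bases after a gene start, were found for 8 of the 9 genes and numbered 13. FKBP5 has a pair of start windows. The window at chr6:35728534-35728833 on the minus strand is printed because it alone of the pair holds the unit marked below. Whether that unit plays a part in any change with DHT was not tested. Capitals mark AGAACA, a single unit of the androgen response element, which begins at the first transcribed base.
FKBP5: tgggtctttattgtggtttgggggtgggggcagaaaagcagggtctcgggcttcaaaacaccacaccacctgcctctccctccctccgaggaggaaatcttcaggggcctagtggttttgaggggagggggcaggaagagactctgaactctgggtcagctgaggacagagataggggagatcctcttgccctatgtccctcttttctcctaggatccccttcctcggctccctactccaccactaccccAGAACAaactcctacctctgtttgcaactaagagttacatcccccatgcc
This unit was found on either strand in 14.8% of 35116 windows of the same length. The full androgen response element, an inverted repeat of that unit around 3 free bases, was in 0 of the 13 windows and in 1 of the 35116, so these letters are rare near starts. Their absence here says nothing of sites elsewhere. The other FKBP5 window, chr6:35688866-35689165 on the minus strand, held neither form and had 76% G and C, against 55.7% in the printed one.

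The heat shock element is the binding motif of heat shock factor 1, which raises chaperone genes under protein stress. Its letters, 3 alternating GAA and TTC units with 2 free bases between units, searched on both strands, were in 172 of the 35116 windows, or 0.49%. They were found in windows of HSP90AA1, HSP90AB1 and DNAJA1, and the stretches around them are printed. No window of FKBP5, PTGES3, STIP1, BAG1 or PPID held them, and FKBP4 had no window. Capitals mark the element. The HSP90AA1 stretch is chr14:102087095-102087157 on the minus strand, with the element from base -88 to -76 before the start. HSP90AB1 has the element at -165 to -153 and again at -112 to -100, in chr6:44247753-44247868 on the plus strand, and the androgen unit at -114 to -109 overlaps the second of these. In DNAJA1 it lies at bases 4 to 16 after the start, in chr9:33025251-33025313 on the plus strand.
HSP90AA1: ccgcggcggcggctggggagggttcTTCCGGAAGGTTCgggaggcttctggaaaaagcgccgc
HSP90AB1: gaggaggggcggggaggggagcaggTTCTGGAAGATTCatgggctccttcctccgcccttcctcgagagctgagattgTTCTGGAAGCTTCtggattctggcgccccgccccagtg
DNAJA1: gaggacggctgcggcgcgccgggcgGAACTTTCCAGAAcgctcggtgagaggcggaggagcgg

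FKBP5 was the member that changed with DHT, and it was higher at each later time. Its log2 signal was 10.81 and 10.67 in vehicle cells, 11.72 and 11.72 after 4 h of DHT, 13.14 and 13.25 after 16 h, and 13.97 and 14.18 after 48 h. No group overlapped another, and the 2 arrays of a group lay within 0.21 of each other. In group means the signal was 10.74 ± 0.10 in vehicle cells, 11.72 ± 0.004 at 4 h, 13.19 ± 0.08 at 16 h and 14.08 ± 0.15 at 48 h (SD, n = 2 each). The signal is that of a bulk culture, so more cells expressing FKBP5 and more RNA per cell cannot be told apart.

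Against vehicle, FKBP5 was 1.97-fold higher at 4 h, 5.48-fold higher at 16 h and 10.1-fold higher at 48 h. The log2 changes were 0.98, 2.45 and 3.34, each with a standard error of 0.10 in a limma fit over all 19775 genes. Their adjusted p was 0.00315 at 4 h, 1.59e-07 at 16 h and 6.07e-09 at 48 h. The 95% intervals were 1.69-fold to 2.31-fold, 4.68-fold to 6.42-fold and 8.63-fold to 11.8-fold in the same order of times. By size of rise FKBP5 was in place 6 of all genes at 4 h and in place 8 at both 16 and 48 h. The call at 4 h did not hold when either DHT 4 h array was left out: the log2 change stayed at 0.98 and the limma adjusted p was 0.0640 without replicate 1 and 0.0807 without replicate 2.

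Of the 9 genes, FKBP5 alone was called (adjusted p below 0.05), at each of the 3 times, and 0 were called lower. The background differed widely between times: 0.177% of all genes were called at 4 h (35 genes), 6.85% at 16 h (1354 genes) and 9.51% at 48 h (1881 genes). Higher calls alone made up 0.106%, 2.55% and 3.13% of all genes at these times. The members' count rests on the same single gene at every time.

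On its brightest probe set FKBP5 also differed between the DHT times. At 16 h it was higher than at 4 h by 1.47 (adjusted p = 1.42e-05, limma), where 3.05% of all genes were called and 1.28% were called higher, and at 48 h it was higher than at 16 h by 0.88 (adjusted p = 0.00229, limma), where 0.829% were called and 0.349% were called higher. On the log2 scale 29.4% of the change seen at 48 h was present at 4 h and 73.5% at 16 h. The other FKBP5 probe sets had 28.3% (224856_at) and 25.3% (204560_at) at 4 h, and 64.0% and 40.0% at 16 h. Neither was called between 16 and 4 h (adjusted p = 0.0555 and 0.821, limma) or between 48 and 16 h (adjusted p = 0.127 and 0.348, limma). A limma F test over the 3 comparisons with vehicle gave FKBP5 an adjusted p of 2.39e-08, with 8.9% of all genes called by that test and 1 of the 9.

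The other FKBP5 probe sets rose as well, but with a wide gap between the arrays at 16 h. Probe set 224856_at read 10.36 and 10.39 in vehicle cells, 11.23 and 11.36 at 4 h, 12.87 and 12.04 at 16 h, and 13.62 and 13.61 at 48 h. Probe set 204560_at read 8.61 and 8.13 in vehicle cells, 9.17 and 9.30 at 4 h, 10.87 and 8.61 at 16 h, and 11.74 and 11.83 at 48 h. In both, the lower 16 h value is that of replicate 2, and all arrays at 4 h and 48 h lie above both vehicle arrays.

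In a limma fit over all 54613 probe sets, 224856_at differed from vehicle by 0.92 at 4 h (adjusted p = 0.542), 2.07 at 16 h (adjusted p = 0.00186) and 3.24 at 48 h (adjusted p = 8.86e-05). With 1 array left out its 4 h difference ran from 0.85 to 0.98, and it was called when either 16 h array was left out. For 204560_at the limma differences were 0.87 (adjusted p = 0.894), 1.37 (adjusted p = 0.286) and 3.42 (adjusted p = 0.0104). That last call was lost when either array of vehicle or of 48 h was left out. It was kept when either array of 4 h or of 16 h was left out. With 1 array left out the 48 h difference of 204560_at ran from 3.18 to 3.66. The fit holds 1 spread for all 4 groups, so the gap at 16 h also enters the tests at 4 h and 48 h. So the probe sets gave log2 changes at 48 h between 3.24 and 3.42, and they parted at 16 h. Without DHT 16 h replicate 2 the change of 204560_at at 16 h was 2.50 (adjusted p = 0.000175, limma), and without replicate 1 it was 0.24. With the mean of all probe sets as the gene's signal, FKBP5 differed from vehicle at 4 h by 0.92 with no call (adjusted p = 0.326, limma), and with DHT 16 h replicate 2 also left out the same 0.92 was called (adjusted p = 0.00736, limma). The brightest probe set did not rest on that array: without it the change at 16 h was 2.40 (adjusted p = 2.81e-06, limma).

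Other member probe sets also had wide gaps at 16 h, and the widest of these were low on the same array. Some smaller gaps went the other way, such as FKBP4 200895_s_at at 12.08 and 12.27 on replicates 1 and 2. The gap between the 2 arrays of a group had a median over the 25 probe sets of 0.0777 in vehicle cells, 0.107 at 4 h, 0.193 at 16 h and 0.124 at 48 h. At 16 h 4 of the 25 gaps were over 0.5, and in the other groups 0 were. These were FKBP5 204560_at (2.26), STIP1 212009_s_at (1.91), HSP90AB1 1557910_at (1.76) and FKBP5 224856_at (0.83), each lower on replicate 2. Over all 41091 probe sets with 1 symbol, 564 had a gap over 1 at 16 h, or 1.37%, against 43 in vehicle cells, 0 at 4 h and 3 at 48 h. Whether RNA quality on that array plays a part in these values was not tested.

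**Figure D1:**
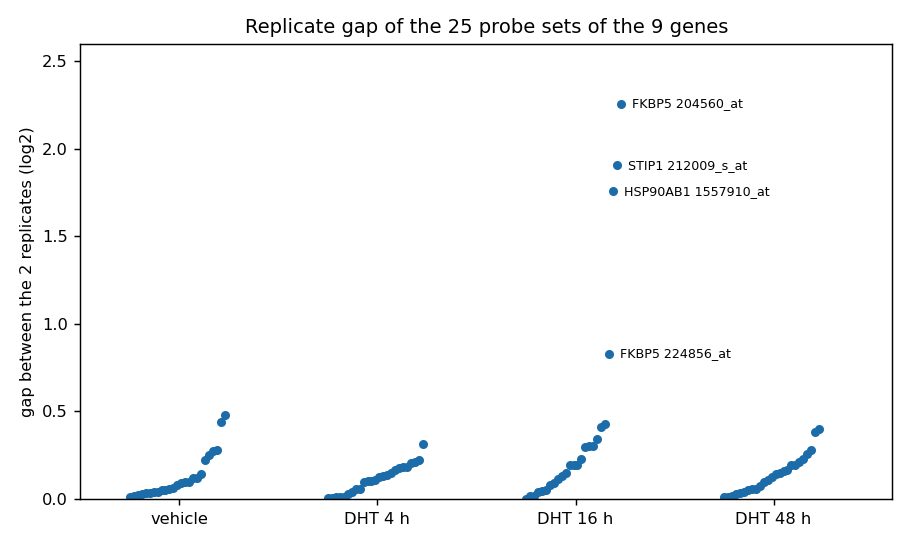
Absolute difference in log2 signal between the 2 arrays of each group for the 25 probe sets of the 9 genes, a point per probe set, by group from vehicle to DHT 48 h. Gaps over 0.5 appear at 16 h alone, the largest being 2.26 for FKBP5 204560_at.

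Both cytosolic HSP90 genes were near their vehicle level at every time. HSP90AA1, the stress-inducible form, read 14.79 and 14.84 in vehicle cells, 14.67 and 14.69 at 4 h, 14.76 and 14.85 at 16 h, and 14.65 and 14.80 at 48 h. On this brightest probe set the 4 h arrays lay below both vehicle arrays, and the later groups overlapped vehicle. On the other 3 probe sets of HSP90AA1 both the 4 h and the 48 h arrays lay below both vehicle arrays, with no call. HSP90AB1, the constitutive form, read 14.15 and 14.18 in vehicle cells, 14.15 and 14.20 at 4 h, 14.33 and 14.33 at 16 h, and 14.17 and 14.11 at 48 h. On its brightest probe set both 16 h arrays stood above the other 6, a difference of 0.16 with no call (adjusted p = 0.339, limma). The other HSP90AB1 probe sets split at 16 h, into 13.35 and 13.05 (214359_s_at) and 13.66 and 11.90 (1557910_at). With the mean of all its probe sets the difference at 16 h was -0.053. HSP90AA1 differed from vehicle by -0.13, -0.0074 and -0.088 at 4, 16 and 48 h, and HSP90AB1 by 0.012, 0.16 and -0.023. These genes are among the brightest on the arrays, up to 14.85 where the table's highest value is 15.57. The other 3 probe sets of HSP90AA1 ranged from 14.04 to 14.48, and those of HSP90AB1 from 13.05 to 13.66 apart from the 11.90 of 1557910_at on DHT 16 h replicate 2.

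On the HSP70 side, DNAJA1, a J-domain protein that delivers clients to HSP70, was lower on all 6 DHT arrays than on either vehicle array in its brightest probe set. It read 13.26 and 13.22 in vehicle cells, 12.97 and 13.15 at 4 h, 13.12 and 12.93 at 16 h, and 12.98 and 13.18 at 48 h. The differences from vehicle, -0.18, -0.21 and -0.16, were not called (limma adjusted p = 0.741, 0.318 and 0.441). Its other probe set, 200880_at, read 12.42 and 12.30 in vehicle cells, 12.14 and 12.20 at 4 h, 12.13 and 12.35 at 16 h, and 11.91 and 12.06 at 48 h, so that DHT 16 h replicate 2 lay above a vehicle array. At 48 h it had a difference of -0.38 (adjusted p = 0.115, limma) that was the lowest at 48 h among the other probe sets of the 8 uncalled genes.

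BAG1, a nucleotide exchange factor that releases clients from HSP70, read 10.90 and 10.91 in vehicle cells, 10.85 and 11.06 at 4 h, 10.98 and 11.00 at 16 h, and 10.81 and 10.80 at 48 h. On this probe set the values thus lay above vehicle at 16 h and below it at 48 h, with differences of 0.087 and -0.097 that are about the size of their standard error of 0.096. The other BAG1 probe sets straddled vehicle at 16 h. Probe set 202387_at read 10.22 and 10.27 in vehicle cells, 10.20 and 10.50 at 16 h, and 10.06 and 10.25 at 48 h. For 229720_at the values were 8.89 and 8.82, 8.74 and 8.93, and 8.55 and 8.72 in the same order. STIP1, the adaptor that links HSP70 to HSP90, read 10.61 and 10.70 in vehicle cells, 10.67 and 10.82 at 4 h, 10.91 and 10.86 at 16 h, and 10.77 and 10.81 at 48 h. All 4 arrays at 16 and 48 h stood above vehicle. STIP1 at 16 h, at 0.23, was alone among the 8 genes in passing 0.05 before adjustment in a comparison with vehicle (limma, adjusted p = 0.195). Its other probe set, 212009_s_at, split at 16 h into 10.92 and 9.01, and with the mean of both probe sets the STIP1 difference at 16 h was -0.15.

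PTGES3, which encodes p23, the protein that steadies the closed HSP90 complex, varied least of the 9. It read 13.94 and 13.88 in vehicle cells, 13.83 and 13.87 at 4 h, 13.93 and 13.91 at 16 h, and 13.80 and 13.90 at 48 h, a span of 0.14 over the 8 arrays. FKBP4, the immunophilin that FKBP5 competes with for HSP90, read 12.01 and 12.04 in vehicle cells, 11.97 and 12.07 at 4 h, 12.08 and 12.27 at 16 h, and 11.97 and 12.03 at 48 h. FKBP4 differed from vehicle by -0.011, 0.15 and -0.031 at these times (limma adjusted p = 0.989, 0.466 and 0.896), beside the 0.98, 2.45 and 3.34 of FKBP5. PPID, the cyclophilin of the same complexes, read 10.68 and 10.64 in vehicle cells, 10.54 and 10.53 at 4 h, 10.56 and 10.49 at 16 h, and 10.64 and 10.87 at 48 h. On this probe set the 4 h and 16 h arrays all lay below vehicle, by -0.12 and -0.13 in the means. DHT 48 h replicate 1 lay between the vehicle arrays, and replicate 2 was the highest array. In the other PPID probe sets the 4 h and 16 h arrays overlapped vehicle. Probe set 204186_s_at read 9.63 and 9.19 in vehicle cells, 9.08 and 9.25 at 4 h, and 9.21 and 8.87 at 16 h. For 228469_at the values were 7.48 and 7.21, 7.31 and 7.21, and 6.98 and 7.41 in the same order.

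**Figure D2:**
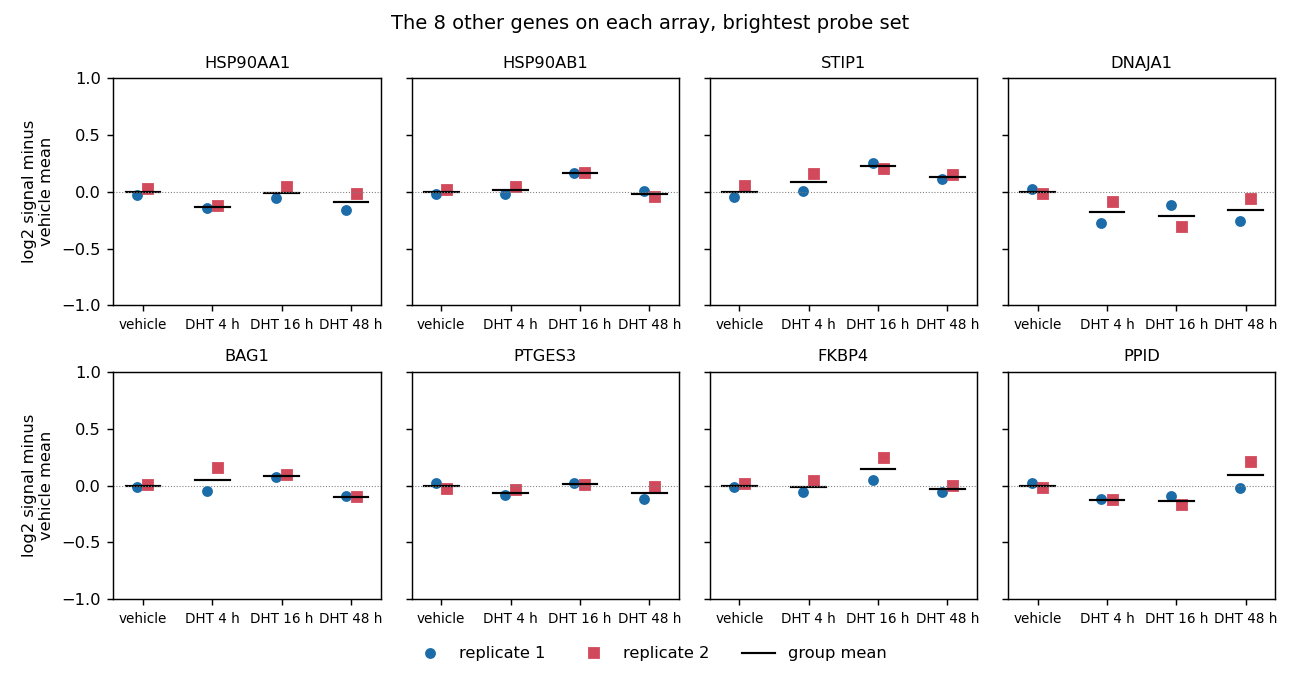
Log2 signal minus the gene's vehicle mean, for the brightest probe set of the 8 genes beside FKBP5 on each of the 8 arrays. Groups run from vehicle to DHT 48 h, with a panel per gene and the same axis in all panels. The spans over the 8 arrays run from 0.14 for PTGES3 to 0.38 for PPID.

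Across these 8 genes the log2 differences from vehicle ranged from -0.18 to 0.084 at 4 h, from -0.21 to 0.23 at 16 h and from -0.16 to 0.13 at 48 h. Their medians were -0.036, 0.049 and -0.047, with standard errors from 0.087 to 0.11. A missed call does not show that a gene was unchanged. The 95% intervals of all 8 genes lay within 0.745-fold and 1.22-fold at 4 h, 0.728-fold and 1.35-fold at 16 h, and 0.756-fold and 1.26-fold at 48 h. The 14 further probe sets of these genes gave 0 calls in any comparison, with differences at 16 h from -0.53 to 0.15. The lowest of these was STIP1 212009_s_at. At an unadjusted p under 0.05, limma gave 0, 1 and 0 of the 8 genes at the 3 times, where 1550, 3930 and 4342 of the 19775 genes passed. Of the 14 further probe sets 0, 0 and 1 passed, the last being DNAJA1 200880_at at 48 h.

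**Figure D3:**
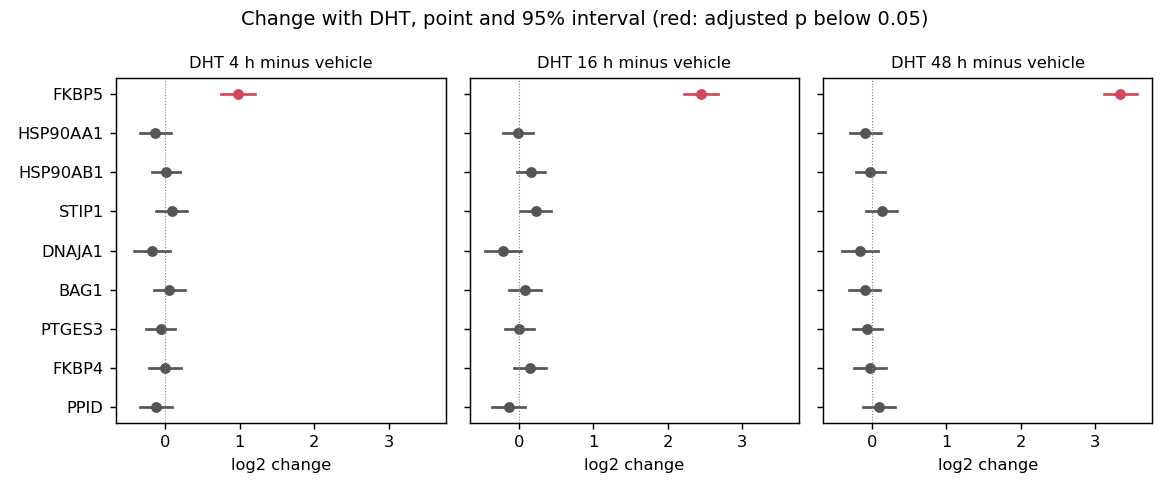
Log2 change from vehicle of each of the 9 genes at 4, 16 and 48 h, with 95% intervals from limma. FKBP5 reaches 3.34 at 48 h, and the 8 other genes stay between -0.21 and 0.23.

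Further genes of the same machinery were read from 6 lists that left the 9 genes out and held 97 genes, 88 of them measured. At 4 h 0 of the 88 were called by limma, with 6 at an unadjusted p under 0.05. At 16 h 4 were higher and 3 lower, or 7.95%, and at 48 h 5 were higher and 5 lower, or 11.4%, beside the backgrounds of 6.85% and 9.51%. The median differences were -0.036, 0.0021 and -0.020.

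Among the other cytosolic HSP90 co-chaperones, 24 measured of 28, NUDC, which acts in nuclear migration, was called higher at 16 h, and FNIP2, a folliculin partner that slows the HSP90 cycle, was called lower at 48 h. FNIP2 read on average 8.93 at 48 h, against 9.58 in vehicle cells, a log2 change of -0.64 (adjusted p = 0.00555, limma). Without vehicle replicate 1 or DHT 48 h replicate 1 its adjusted p was 0.0536 and 0.0739. NUDC was 0.44 higher (adjusted p = 0.0495, limma). In all, 14 alternative settings lost that call, and with a probe set outside the _s_at and _x_at kinds NUDC was at 0.063 (adjusted p = 0.851, limma).

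The HSP70 list, 27 measured of 30, had 1 higher and 1 lower at 16 h, and 2 higher and 2 lower at 48 h. HSPA2, a testis-rich HSP70, read 8.83 and 9.01 at 48 h against 8.22 and 8.12 in vehicle cells (log2 change 0.75, adjusted p = 0.00309, limma). It was also called at 16 h (0.50, adjusted p = 0.0386, limma), a call that 12 settings lost, with 0.33 (adjusted p = 0.223, limma) when DHT 16 h replicate 2 was left out. DNAJC9, a J-domain protein that also handles histones, read 10.91 and 10.93 at 48 h against 11.55 and 11.59 in vehicle cells (-0.65, adjusted p = 0.000684, limma) and was lower at 16 h too (-0.54). With a probe set outside the _s_at and _x_at kinds, its changes were -0.26 at 16 h and -0.10 at 48 h, with no call. HSPH1, an HSP110 exchange factor, was 0.66 higher at 48 h (adjusted p = 0.00228, limma), with a mean of 12.67 against 12.01 in vehicle cells, and at 0.36 it was not called with a probe set outside the _s_at and _x_at kinds. HSPA14 was 0.34 lower at 48 h, at an adjusted p of 0.0481 (limma) that 12 settings lost, with -0.16 when its probe sets were averaged.

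The stress-inducible list, 13 measured of 18 and holding HSPH1 too, did not move as 1 group. HSPB1, the small heat shock protein HSP27, read 11.32 and 11.40 at 48 h against 11.95 and 12.17 in vehicle cells, a log2 change of -0.70 (adjusted p = 0.00324, limma), after -0.51 at 16 h. The 16 h call was lost without vehicle replicate 2 or DHT 16 h replicate 1. HSPE1, the mitochondrial co-chaperonin, was 0.45 higher at 16 h and 0.41 higher at 48 h (adjusted p = 0.0299 and 0.0349, limma), calls that 9 and 8 settings lost, and HSPE1 at 48 h was at 0.27 without DHT 48 h replicate 2. Its counts were 1 higher and 1 lower at 16 h, and 2 higher and 1 lower at 48 h.

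The 13 other FKBP immunophilins held 0 calls at any time by limma, with 0, 0 and 1 of them at an unadjusted p under 0.05. Of the 15 cyclophilins 1 was higher and 1 lower at both 16 and 48 h. PPIF, the cyclophilin of the mitochondrial pore, was 0.46 and 0.47 higher, and the spliceosomal cyclophilin PPWD1 was lower, at -0.55 and -0.44. All 4 of these calls were lost without vehicle replicate 1. PPIF also lost them without DHT 16 h replicate 2 at 16 h and without either 48 h array at 48 h, and PPWD1 without DHT 48 h replicate 1 at 48 h. The organelle chaperones had 1 call at 48 h, TRAP1, the mitochondrial HSP90 (0.39, adjusted p = 0.0273, limma), which was not called with the mean of its probe sets (0.14), nor without vehicle replicate 1 or either 48 h array. HSP90B1 of the endoplasmic reticulum was at 0.36 (adjusted p = 0.0577, limma), HSPA5 at 0.22 and HSPA9 at 0.074, all without a call. HSP90B1 gained a call under 5 settings (smallest adjusted p = 0.0293, limma), and it was at 0.49 without DHT 48 h replicate 1 and 0.24 without replicate 2, with no call in either.

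**Figure D4:**
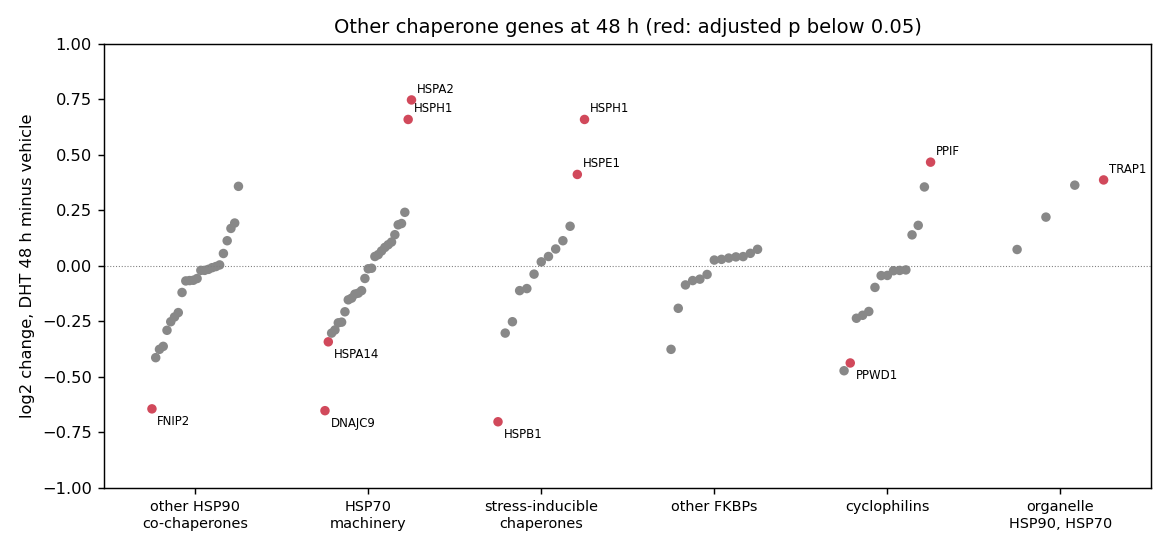
Log2 change at 48 h of DHT from vehicle for each measured gene of the chaperone lists, a point per gene, with called genes marked. Called genes lie on both sides of 0, from -0.70 for HSPB1 to 0.75 for HSPA2.

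Other steroid receptors use the same complexes, and 5 of 5 were measured. NR3C1, the glucocorticoid receptor, read 10.76 and 10.85 at 48 h against 11.50 and 11.28 in vehicle cells. The log2 change of -0.59 was called (adjusted p = 0.00348, limma), and with a probe set outside the _s_at and _x_at kinds it was -0.51 with no call (adjusted p = 0.408). NR3C2, PGR, ESR1 and ESR2 were not called at any time, with changes at 48 h of 0.040, -0.044, 0.22 and 0.095. NR3C1 read 11.24 and 11.25 at 4 h and 11.10 and 11.20 at 16 h.

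The genes whose 3 log2 changes lay nearest to those of FKBP5 were chosen by the root mean square difference over 4, 16 and 48 h, with all 19775 genes in the search. HSD11B2, the enzyme that inactivates cortisol, was nearest at 0.223, with changes of 0.75, 2.17 and 3.46. C1orf116 followed at 0.282 (0.70, 2.17 and 3.06). DDC, which decarboxylates aromatic amino acids, was at 0.50 (0.19, 2.81 and 3.42), NDRG1, a stress-responsive gene, at 0.539 (0.31, 2.78 and 2.78) and ADRA2A, an adrenergic receptor, at 0.615 (0.73, 1.68 and 2.66). All 5 were called at 16 and 48 h. At 4 h HSD11B2 and C1orf116 were called, though not when either DHT 4 h array or vehicle replicate 1 was left out (for C1orf116 also without vehicle replicate 2, for HSD11B2 also without either 48 h array), and DDC, NDRG1 and ADRA2A were not called. The likeness rests on 3 differences that share the vehicle arrays, and it was what chose these genes.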

How the data were processed

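Total RNA from 8 cultures was read on Affymetrix expression arrays. The authors deposited log2 signals that were normalised by RMA, per the submitters' processing notes, with no version named. Scanner images were not analysed here.

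Of 54675 probe sets, 62 controls were left out. 41091 carried 1 symbol, 1801 several and 11721 none in the platform annotation. Each of 19775 genes was read by its brightest probe set, and 6 of the 9 members were read by an _s_at or _x_at probe set, a kind that can match more than 1 transcript. No dim genes were removed, and precision is limited by the few arrays.

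A model of 4 group means over the 8 arrays was fitted in R 4.3.3 using limma 3.58.1 (4 residual and 7.21 prior degrees of freedom), with no replicate block. Tests were two-sided, adjusted by Benjamini-Hochberg over all genes, and called below 0.05. An exact permutation test on 2 and 2 arrays has a smallest p of 0.333, and was not run. The script was tested on simulated data. Replicates are labelled biological, with no further detail. The members and lists were chosen with earlier results of these data known. All 9 members were named, with up to 4 called genes per list by size of change, the receptor and organelle lists whole, and the 5 genes most like FKBP5. Alternatives covered probe set choice, dim genes, scaling, array weights, an intensity trend, the replicate block and each array left out.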

Additional observations from a re-analysis of the deposited data

Results flagged for a closer look

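FKBP5 differed between the DHT times themselves on its brightest probe set. At 16 h its log2 signal was 1.47 above that at 4 h, and at 48 h it was 0.88 above that at 16 h, both called by limma over all genes (adjusted p = 1.42e-05 and 0.00229, n = 2 each). Both 16 h arrays of this probe set lay above both 4 h arrays, and both 48 h arrays above both 16 h arrays. Neither of the other FKBP5 probe sets was called in these comparisons with all arrays, and in 204560_at DHT 16 h replicate 2 (8.61) lay below both 4 h arrays. Without that array the 16 h minus 4 h differences were 1.57 (224856_at) and 1.63 (204560_at). Without DHT 16 h replicate 1 they were 0.74 and -0.63. The 48 h minus 16 h differences were 0.75 and 0.92 without replicate 2, and 1.58 and 3.18 without replicate 1, in the same order of probe sets. With the mean of all FKBP5 probe sets the differences were 1.04 with no call (adjusted p = 0.0581, limma) and 1.37. With DHT 16 h replicate 2 also left out they were 1.54 and 0.87, both called (adjusted p = 0.000202 and 0.0196, limma).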

How the results depend on the processing

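FKBP5 kept its direction in all 5 comparisons under 20 alternatives: 0.91 to 1.05 at 4 h, 1.97 to 2.53 at 16 h, 3.23 to 3.44 at 48 h, 1.04 to 1.54 for 16 h against 4 h and 0.78 to 1.37 for 48 h against 16 h. With the mean of all probe sets, it lost its call at 4 h (0.92) and for 16 h against 4 h (1.04), so the count of members called was 0 in both. Leaving out 1 array at a time gave 0 to 1 members called at 4 h and FKBP5 changes there of 0.91 to 1.05; those of 204560_at for 16 h against 4 h ran from -0.63 to 1.63. For the 8 other members 0 of 480 alternative values were called, 28 had the other sign, and they ran from -0.38 to 0.34.

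Signs changed in uncalled differences, the widest among the 8 other members being STIP1 at 16 h. With the mean of all probe sets, FKBP4 was at 0.048 at 4 h, HSP90AB1 at -0.053 at 16 h and 0.019 at 48 h, STIP1 at -0.15 at 16 h (against 0.23), PPID at -0.021 and HSPA9 at -0.052 at 48 h. Also without DHT 16 h replicate 2, an alternative chosen after seeing the data, these were 0.048 for FKBP4, 0.019 for HSP90AB1 at 48 h, -0.021 for PPID and -0.052 for HSPA9, with BAG1 at -0.027 at 16 h. With probe sets outside the _s_at and _x_at kinds, FKBP4 was at 0.015 and BAG1 at -0.049 at 4 h, HSP90AA1 at 0.026 at 16 h, and PPID at -0.11, HSPA9 at -0.089 and ESR1 at -0.042 at 48 h. A second quantile normalisation gave FKBP4 0.034 at 4 h and 0.030 at 48 h, and PTGES3 0.018 at 4 h. Equal housekeeping signal gave FKBP4 0.048 at 4 h and HSP90AA1 0.018 at 16 h. With 1 array left out, the ranges that crossed 0 were -0.060 to 0.039 for FKBP4, -0.016 to 0.041 for HSP90AB1 and -0.050 to 0.16 for BAG1 at 4 h, -0.054 to 0.039 for HSP90AA1 and -0.016 to 0.037 for PTGES3 at 16 h, and at 48 h -0.050 to 0.0032 for HSP90AB1, -0.019 to 0.21 for PPID, -0.023 to 0.17 for HSPA9, -0.087 to 0.17 for NR3C2, -0.099 to 0.011 for PGR and -0.12 to 0.31 for ESR2.

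Counts over all genes moved more, and the cause was not tested where the setting does not give it. At 4 h, where 35 were called, there were 23 with probe sets outside the _s_at and _x_at kinds, 57 without dim genes, 59 with an intensity trend, 74 with array weights, 8 with all probe sets tested and 5 to 60 with 1 array left out. Testing all probe sets gave 719 at 16 h, 1135 at 48 h, 237 for 16 h against 4 h, 52 for 48 h against 16 h and 915 by the F test. With only the 2 groups compared in the fit there were 798 at 16 h, 302 for 16 h against 4 h and 63 for 48 h against 16 h; the F test was not run there. The mean of probe sets without DHT 16 h replicate 2 gave 821, 336 and 46 for the same comparisons. With 1 array left out the counts were 517 to 1654 at 16 h, 834 to 2211 at 48 h, 171 to 1107 for 16 h against 4 h, 37 to 644 for 48 h against 16 h, and 1034 to 2495 by the F test.

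With the replicate number as a block, 25, 1261 and 1729 genes were called at 4, 16 and 48 h and 1 member at each. Deviations of same-numbered arrays correlated between -0.244 and 0.196 over the 6 pairs of groups, so the numbers were not taken to pair the cultures. The block changed the call of HSPA2 at 16 h and of HSPE1 at 48 h among the genes named. The number of arrays, 2 a group, limits all of these values.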
